A study of Mus musculus with 2 samples.

Results

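The clustered histone genes of the mouse were examined in RNA from the duodenum, the part of the small intestine next to the stomach. Members were the genes with a row in both deposited gene tables and a protein-coding GENCODE M21 symbol starting with Hist1h, Hist2h, Hist3h or Hist4h. This gave 64 of 43346 genes: 6 for the linker histone H1, 18 for H2A, 15 for H2B, 12 for H3 and 13 for H4. They lie in 4 clusters, with 52 genes in Hist1 on chromosome 13, 9 in Hist2 on chromosome 3, 2 in Hist3 on chromosome 11 and 1 in Hist4 on chromosome 6. Another 3 genes that fit the naming rule, Hist1h2bh, Hist1h2bm and Hist2h2bb, had no row and were not analysed here. In M21 the transcript used for 60 members has 1 exon; those of the H2B genes Hist1h2bc, Hist1h2be and Hist1h2br have 2, and that of Hist1h2bq has 3.

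The tissue came from C57BL/6J mice aged 8 weeks, pooled from male and female littermates, with no treatment or transgene named in the labels. The 2 libraries, replicate 1 and replicate 2, form 1 group. They carry different tissue entries and the same donor entry, so the spread between these libraries may be technical in part. The p-values given here set the difference between the 2 libraries against counting error alone and do not measure that spread. Per the labels, the RNA was depleted of ribosomal RNA, kept if it carried a poly(A) tail, freed of short RNA and read as stranded pairs of 76 bases.

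Histones are the proteins around which nuclear DNA is wound: H2A, H2B, H3 and H4 form the nucleosome core, and H1 binds the linker. The clustered genes supply most of the new histone protein of S phase, when DNA is copied, and most have no introns. Their mRNAs typically end just after a short stem-loop, which is bound by the protein Slbp, and mostly lack the poly(A) tail of other mRNAs. Such genes can also give polyadenylated transcripts, as described in differentiated cells. Poly(A) selection therefore bears on every level given here, and how much of each gene's RNA it retained was not tested.

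Replicate 1 held 44977004 expected counts, spike-ins included, and replicate 2 held 45438504. The libraries differed beyond sampling noise (chi-square per degree of freedom of 783). All 12 genes listed as markers of differentiated enterocytes, the absorptive cells that define this tissue, were detected in both libraries, and they summed to 13330 TPM in replicate 1 and 28153 TPM in replicate 2. TPM is a level per transcript length, scaled to the same total in each library. By the calling rule given below, 1 of these 12 genes was higher in replicate 1 and 8 were higher in replicate 2. Over all genes tested the shares called in these directions were 14.6% and 11.5%. The gene higher in replicate 1, Alpi, had 7153 TPM there, most of the replicate 1 sum, and 1568 TPM in replicate 2. The 15 genes listed for the acinar pancreas summed to 86700 TPM in replicate 1 and 5724 TPM in replicate 2. Of these 14 were higher in replicate 1 and 1, Zg16, in replicate 2, against the same 14.6% and 11.5% of all genes tested. Cuzd1 was listed at 0 in replicate 2. Zg16 had 1497 TPM in replicate 1 and 4507 TPM in replicate 2, most of the replicate 2 sum. Clps had 11586 TPM in replicate 1 and 1083 TPM in replicate 2. The next highest of the list in replicate 2, Ctrb1, had 48.5 TPM there. The 12 genes of stomach and Brunner gland summed to 24929 TPM in replicate 1 and 91.1 TPM in replicate 2, with none at 0. Of these 10 were higher in replicate 1, against 14.6% of all genes tested, and 1 in replicate 2, against 11.5%. The part of these cell types in the histone results was not tested, and in bulk tissue fewer cells of a type and less RNA per cell cannot be told apart.

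The stem-loop was searched in the GENCODE M21 transcripts as a 16-base run, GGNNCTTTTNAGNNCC, whose outer 6 bases pair on each side of a 4-base loop. It was found in 42 of the 64 members (65.6%) and in 5 of 21834 other protein-coding genes (0.0229%). There were 6 forms, and 1 example of each is shown with up to 5 flanking bases, because the forms of H4 were found in no other type. Capitals mark the stem-loop, and positions are mm10.
Hist1h2ap (H2A, chr13:21833026-21833049, minus strand): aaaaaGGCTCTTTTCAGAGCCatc
Hist1h3e (H3, chr13:23561898-23561923, minus strand): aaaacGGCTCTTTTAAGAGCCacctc
Hist2h2ac (H2A, chr3:96220413-96220438, minus strand): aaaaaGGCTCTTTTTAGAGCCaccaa
Hist1h4d (H4, chr13:23581945-23581970, plus strand): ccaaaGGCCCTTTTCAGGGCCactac
Hist1h4i (H4, chr13:22040961-22040986, minus strand): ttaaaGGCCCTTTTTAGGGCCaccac
Hist1h4b (H4, chr13:23757361-23757386, plus strand): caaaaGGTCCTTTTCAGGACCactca

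The form seen in Hist1h2ap was held by 24 members, 3 of H1, 10 of H2A, 6 of H2B and 5 of H3. The form of Hist1h3e was held by 6 members, 1 of H1, 2 of H2B and 3 of H3, and the form of Hist2h2ac by that gene alone. All 11 H4 genes with a stem-loop had one of the remaining 3 forms, in which the stem differs: 7 had that of Hist1h4d, 2 that of Hist1h4i and 2 that of Hist1h4b. No H1, H2A, H2B or H3 gene had an H4 form. A member without a match lacks only these letters in its annotated transcript, which in some members stops at the end of the coding sequence.

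The members together reached 2606 TPM in replicate 1 and 6711 TPM in replicate 2 (4658 ± 2902 TPM, SD, n = 2), which is 0.261% and 0.671% of all TPM. H2A genes made up 56.7% of this sum in replicate 1 and 71.1% in replicate 2. H2A summed to 1477 TPM in replicate 1 and 4769 TPM in replicate 2, H2B to 443.5 and 955.6 TPM, and H3 to 512.4 and 701 TPM. The order of the 2 middle types was thus H3 above H2B in replicate 1 and H2B above H3 in replicate 2. H4 summed to 149 TPM in replicate 1 against 234 TPM in replicate 2, and H1 to 23.7 and 50.8 TPM. A TPM of at least 1 in both libraries was reached by 53 of the 64 members. The sums of the 4 core types, which enter the nucleosome in equal amounts as proteins, were thus far from equal in this polyadenylated RNA.

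**Figure D1:**
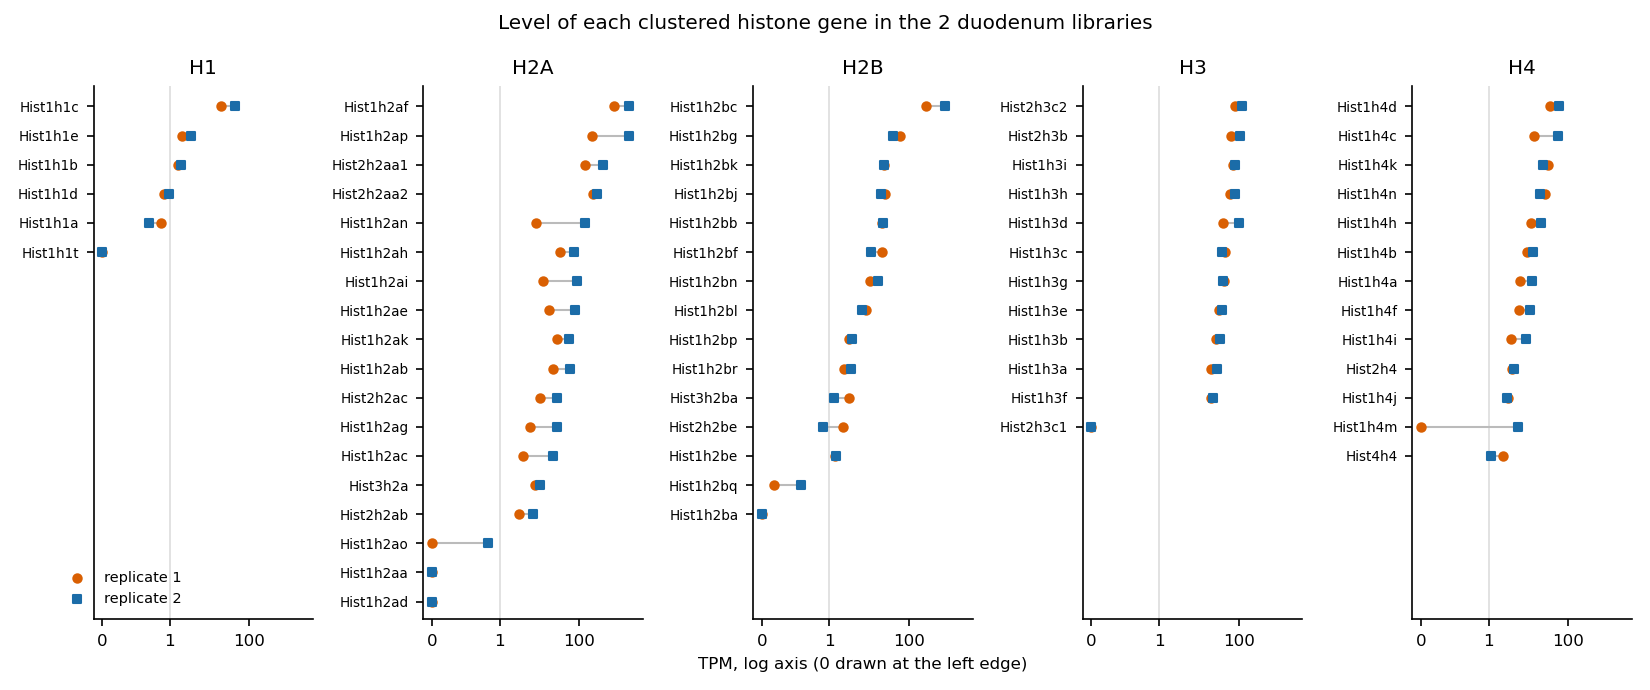
TPM of each of the 64 members (log axis, one panel per histone type, genes ordered by mean level), with replicate 1 as circles and replicate 2 as squares, and 0 drawn at the left edge. H2A spans from 0 to 1773 TPM and H2B from 0 to 803 TPM, whereas 11 of 12 H3 genes lie between 20.2 and 123.6 TPM.

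Levels were concentrated in a few genes: the 5 most abundant members held 60.9% of member TPM in replicate 1 and 74.3% in replicate 2. Of these 4 encode H2A and 1, Hist1h2bc, encodes H2B. Across the 57 members with a TPM in both libraries, log2(TPM + 1) had a Pearson correlation of 0.919 and a Spearman correlation of 0.876, a description across genes that share both libraries.

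Many members share long stretches of sequence, so single-gene values rest partly on how the authors' quantifier divided shared fragments. In M21, 28 of 64 members shared more than 50% of their 76-base windows with another gene, 6 shared none, and the median was 44.0%. These and all later window shares are of M21 sequence, and for 19 members the counted transcript has another length. How much the counted transcripts of those 19 share was not measured. The 64 members encode 27 distinct proteins. The 13 H4 genes encode 1 protein of 103 residues, 9 H2A genes encode the same 130 residues, and 8 of 12 H3 genes the same 136 residues. Of the 53 members at 1 TPM or more in both libraries, the deposited bounds on the TPM were over 2-fold apart for 5 in replicate 1 and for 2 in replicate 2.

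Counts of the 2 libraries were set against each other gene by gene in an exact binomial test (two-sided), Benjamini-Hochberg adjusted over all 15921 genes whose counts averaged at least 10. A gene was called higher in a library at an adjusted p under 0.05 and a scaled ratio of at least 2-fold. Of the 56 members tested, 2 were higher in replicate 1, against 14.6% of all genes tested, and 19 were higher in replicate 2, against 11.5%. The share called in either direction was 26.1% over all genes. With spike-in totals in place of TMM scaling the split was 4 higher in replicate 1, against 20.1% of all genes, and 15 higher in replicate 2, against 7.90%. The log2 ratio, replicate 1 over replicate 2 of TMM-scaled CPM + 0.5, was negative for 45 of the 56 members, with a median of -0.56. Over all genes tested it was negative for 47.9%, with a median of 0.04. The remaining 35 tested members were not called, and 8 members were not tested for too few counts.

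By type, the calls were as follows. Of 15 H2A genes tested, 12 were higher in replicate 2 and 3 were not called, and all 15 log2 ratios were negative (median -1.36, range -3.68 to -0.39). Of 13 H2B genes, 10 were not called, 2 were higher in replicate 1 and only 1 was higher in replicate 2, with a median of -0.03. Of 11 H3 genes 1 was higher in replicate 2 (median -0.36), of 13 H4 genes 4 (median -0.63), and of 4 H1 genes 1 (median -0.44). With the counts of a type pooled, the excess in replicate 2 was 3.30-fold for H2A, 2.59-fold for H2B, 2.51-fold for H1, 1.49-fold for H3 and 1.47-fold for H4. Without Hist1h1c the excess for H1 was 1.47-fold (1.13 to 1.90). All 5 pooled ratios kept this direction under the 6 scalings tried. The difference between types was not tested, since genes of a type share sequence and the 2 libraries.

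**Figure D2:**
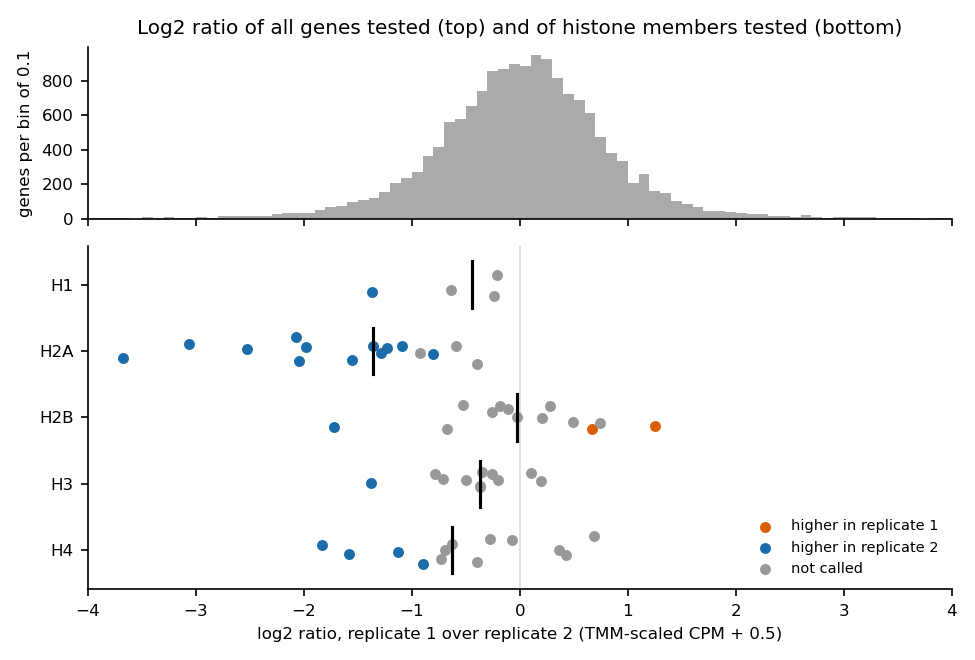
Log2 ratio, replicate 1 over replicate 2, of all 15921 genes tested (top, genes per bin of 0.1, drawn from -4 to 4) and of the 56 members tested by type (bottom, black bars are medians). All 15 H2A genes lie below 0, whereas the 13 H2B genes lie on both sides of it.

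H2A genes held most of the sum. Hist1h2af (chr13:23533906-23534304, mm10, plus strand, 1 exon) had the highest TPM of the members in both libraries. It had 753 TPM (6495 counts) in replicate 1 against 1773 TPM (13053 counts) in replicate 2. It ranked 156th of all genes in replicate 1 and 71st in replicate 2, and it was 2.34-fold higher in replicate 2 (95% interval 2.28 to 2.42). Other H2A genes hold 70.1% of the windows of Hist1h2af. In replicate 2 its deposited TPM bounds, 1721 to 1790, overlapped those of Hist1h2ap, 1705 to 1759. Hist1h2ap had more counts there, 18624, over a longer counted transcript (482 against 399 bases), so which of the 2 was higher in replicate 2 is uncertain.

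Hist1h2ap (chr13:21833026-21833507, minus strand, 1 exon) had 215 TPM (2582 counts) in replicate 1 and 1749 TPM (18624 counts) in replicate 2. This was an 8.42-fold excess in replicate 2 (8.08 to 8.77), and its rank was 563rd in replicate 1 and 73rd in replicate 2. Its near-copy Hist1h2ao, with which it shares 92.6% of its windows, had 0 and 5 counts, and with both genes summed the excess in replicate 2 was again 8.42-fold. Hist1h2an had the most negative ratio of all members, with 8.16 TPM (68 counts) in replicate 1 and 139 TPM (988 counts) in replicate 2, a 17.0-fold excess in replicate 2 (13.3 to 22.0). It shares 84.6% of its windows with other genes.

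The 9 H2A genes with the protein of Hist1h2ap and Hist1h2an can be summed, so that fragments shared among them no longer matter, although those shared with other H2A genes still do. Together they had 285 TPM (3325 counts) in replicate 1 and 2160 TPM (22122 counts) in replicate 2, 7.76-fold higher in replicate 2 (7.48 to 8.05). Hist1h2ai (6.85-fold), Hist1h2ac (5.88-fold), Hist1h2ag (4.93-fold), Hist1h2ae (4.51-fold) and Hist1h2ab (2.71-fold) belong to this set, and each was also called higher in replicate 2 alone. Most of the level listed for this set was that of Hist1h2ap in both libraries.

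In the Hist2 cluster, Hist2h2aa1 had 139 TPM in replicate 1 against 388.4 TPM in replicate 2, and Hist2h2aa2 had 218 TPM in replicate 1 and 274.5 TPM in replicate 2. These copies encode the same protein, and every window of Hist2h2aa2 is also in Hist2h2aa1, so their single values are uncertain. Summed, they had 358 TPM in replicate 1 and 663 TPM in replicate 2, 2.02-fold higher in replicate 2 (1.95 to 2.09). The noncoding transcript Gm20634, which shares 88.8% of the windows of Hist2h2aa1, had 9.50 and 9.88 TPM.

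The other called H2A genes were Hist1h2ah at 32.9 TPM in replicate 1 against 73.5 TPM in replicate 2, Hist2h2ac at 10.5 and 27.1 TPM, and Hist2h2ab at 3.06 and 6.89 TPM. All 3 were 2.23-fold to 2.68-fold higher in replicate 2. Hist1h2ak, at 27.0 TPM in replicate 1 against 54.3 TPM in replicate 2, lay just under the limit at 1.998-fold. Hist3h2a, of the Hist3 cluster, had 7.66 TPM in replicate 1 against 10.5 TPM in replicate 2 and was not called; 30.6% of its windows are also in Trim17. Without Hist1h2af and Hist1h2ap, the 16 remaining H2A genes were still 2.35-fold higher in replicate 2 (2.28 to 2.42).

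H2B showed another pattern, in which 1 gene carried the sum. Hist1h2bc (chr13:23684199-23692908, plus strand) had 262 TPM (5870 counts) in replicate 1 and 803 TPM (16636 counts) in replicate 2, 3.31-fold higher in replicate 2 (3.21 to 3.41). It shares 27.0% of its windows with other genes. Without it the other 14 H2B genes summed to 181 TPM in replicate 1 and 152 TPM in replicate 2, 1.17-fold higher in replicate 1 (1.10 to 1.25). So the direction of H2B rested on Hist1h2bc, and without that gene the pooled log2 ratio was positive under each scaling tried for it, among them TMM (0.23), spike-in totals (0.47) and the deposited TPM (0.25).

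The next H2B genes by level were Hist1h2bg, at 59.5 TPM in replicate 1 against 40.4 TPM in replicate 2, and Hist1h2bk, at 23.6 and 23.3 TPM. Neither was called. The only members called higher in replicate 1 were H2B genes outside Hist1. Hist2h2be had 2.21 TPM (220 counts) in replicate 1 and 0.70 TPM (67 counts) in replicate 2, 2.81-fold higher in replicate 1 (2.13 to 3.76), and shares no window with another gene. Hist3h2ba had 3.04 TPM (53 counts) in replicate 1 and 1.32 TPM (21 counts) in replicate 2, 2.16-fold higher in replicate 1 (1.28 to 3.78).

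H2A and H2B genes often stand head to head, sharing the stretch between their starts. Among the members 12 such pairs were found, with starts 176 to 306 bases apart, and in 9 both genes were tested. The H2A gene had the lower log2 ratio in 9 of these 9 pairs. The pairs are not independent, since many of these H2A genes share windows with each other. The medians were -2.05 for the H2A partners and -0.03 for the H2B partners. In the pair Hist1h2ap and Hist1h2br, the H2A gene had 215 TPM in replicate 1 against 1749 TPM in replicate 2, and the H2B gene had 2.29 and 3.61 TPM. However, 92.6% of the windows of Hist1h2ap are in Hist1h2ao and 99.8% of those of Hist1h2br are in Hist1h2bq. As Hist1h2ao and Hist1h2bq form another pair, the division of levels between these pairs is uncertain. In the pair Hist2h2ac and Hist2h2be the 2 genes were called in opposite directions. In the pair Hist1h2ac and Hist1h2bc both were higher in replicate 2, and here the H2B gene was the more abundant, with 3.90 TPM in replicate 1 and 22.3 TPM in replicate 2 for Hist1h2ac. The share of windows found in other genes had a median of 70.1% among the tested H2A genes and 50% among the tested H2B genes. Median GC content was 64.3% and 57.2%. Both were read from M21 transcripts, which for some of these genes differ in length from the counted ones.

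**Figure D3:**
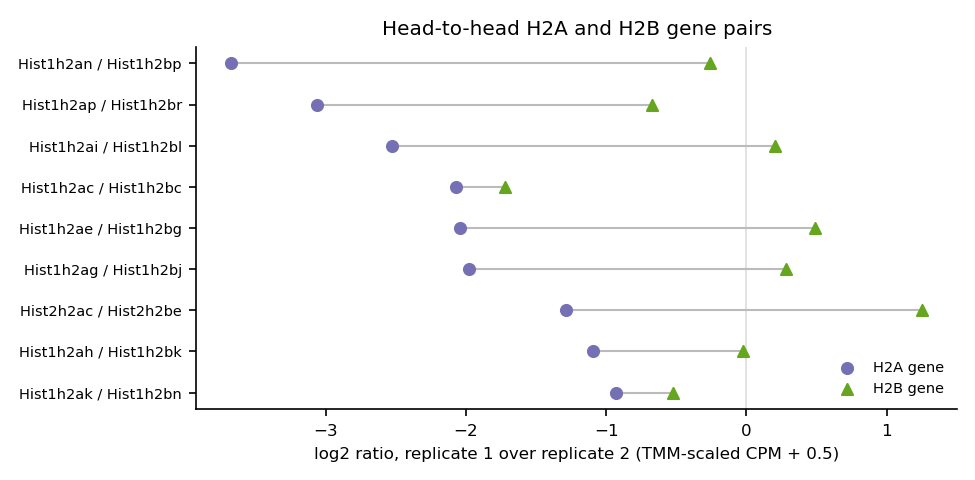
Log2 ratio, replicate 1 over replicate 2, of the H2A gene (circles) and the H2B gene (triangles) of the 9 head-to-head pairs in which both were tested. In every pair the H2A gene lies to the left of its partner, by least for Hist1h2ac and Hist1h2bc and by most for Hist1h2an and Hist1h2bp.

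The 250 bases before the start of 57 members were taken from RefSeq (GRCm38.p6), with the RefSeq start required on the same strand within 1000 bases of the M21 start. Hist1h2ap had no such entry. Shown are the stretches before Hist1h2an, the member with the most negative ratio, which takes in most of the region between it and Hist1h2bp, and before Hist1h2ah, which holds an octamer. Capitals mark TATAAA (the TATA box), CCAAT and ATTTGCAT (the octamer, the binding element of POU factors such as Oct1), each on either strand, and no marked motifs overlap here.
Hist1h2an (chr13:21787249-21787498, minus strand): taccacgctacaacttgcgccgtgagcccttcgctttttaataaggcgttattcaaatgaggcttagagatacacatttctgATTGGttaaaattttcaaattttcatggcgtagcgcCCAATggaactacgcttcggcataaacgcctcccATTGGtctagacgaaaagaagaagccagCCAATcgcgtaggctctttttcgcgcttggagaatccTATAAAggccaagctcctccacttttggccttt
Hist1h2ah (chr13:22035644-22035893, minus strand): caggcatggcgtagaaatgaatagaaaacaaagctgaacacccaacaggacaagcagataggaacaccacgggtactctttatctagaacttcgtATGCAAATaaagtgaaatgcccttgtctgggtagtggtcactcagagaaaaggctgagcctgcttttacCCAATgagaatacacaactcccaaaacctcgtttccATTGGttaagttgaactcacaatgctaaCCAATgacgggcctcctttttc

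CCAAT stood in 46 of 57 member stretches (80.7%) and in 34.5% of all 27025 promoters of the table. It was present before all 17 H2A, all 13 H2B and all 5 H1 genes, before 8 of 10 H3 genes and before 3 of 12 H4 genes. TATAAA stood in 28 of 57 (49.1%), against 13.0% of all promoters. ATTTGCAT stood in 11 of 57 (19.3%), 7 of H2A and 4 of H2B, against 1.61% of all promoters. In head-to-head pairs both genes' stretches cover much of the same DNA, so the counts of H2A and H2B are not independent. A match is a run of letters and says nothing of binding.

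H3 genes lay close together in level, apart from Hist2h3c1. The highest were Hist2h3c2, at 82.5 TPM in replicate 1 against 124 TPM in replicate 2, Hist2h3b, at 64.8 and 109 TPM, and Hist1h3i, at 72.1 and 83.3 TPM. All 3 were under 2-fold apart between the libraries. They share 62.5%, 78.5% and 78.0% of their windows with other genes, so their order is uncertain. Hist1h3d alone was called, with 40.2 TPM (612 counts) in replicate 1 and 102 TPM (1398 counts) in replicate 2, 2.67-fold higher in replicate 2 (2.42 to 2.94). Hist2h3c1 was at 0 counts in both libraries, although its windows all occur in the noncoding transcript Gm20634, which had 1075 and 1074 counts. The level of Hist2h3c1 thus cannot be told from that of the genes that share its sequence.

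H4 genes stood lower, all encoding the same protein. Hist1h4d had 33.8 TPM in replicate 1 against 57.0 TPM in replicate 2, and Hist1h4k had 30.4 TPM in replicate 1 against 23.8 TPM in replicate 2, and neither was called. Hist1h4c had 13.4 TPM (113 counts) in replicate 1 and 55.1 TPM (397 counts) in replicate 2, 4.10-fold higher in replicate 2 (3.32 to 5.10). Hist1h4i (2.53-fold) and Hist1h4a (2.11-fold) were also higher in replicate 2. Hist1h4m had 0 counts in replicate 1 and 41 in replicate 2, at least 15.9-fold higher in replicate 2 with 3 counts set for the library at 0. However, 89.0% of its windows are in Hist1h4n, and with these genes summed replicate 1 had 254 counts and replicate 2 had 206, a scaled ratio of 1.06 (0.876 to 1.28). The call of Hist1h4m thus did not hold for the pair. Hist4h4, the single gene of the Hist4 cluster, had 2.23 TPM in replicate 1 against 1.16 TPM in replicate 2 and was not called.

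Linker histones had the lowest sum. Hist1h1c, the gene of H1.2, had 18.8 TPM (1055 counts) in replicate 1 and 44.3 TPM (2364 counts) in replicate 2, 2.61-fold higher in replicate 2 (2.43 to 2.81). Hist1h1e had 2.00 and 3.44 TPM, and Hist1h1b had 1.59 and 1.86 TPM, and neither was called. Hist1h1c thus made up most of the H1 sum in both libraries. Members at 0 in both libraries numbered 5. Hist1h1t, Hist1h2aa and Hist1h2ba, known as testis histones, were among them, with Hist1h2ad and Hist2h3c1. For the 3 testis histones a count of 0 allows up to 0.0678 CPM in replicate 1 and 0.0671 CPM in replicate 2, by counting error only. For Hist1h2ad, which shares 65.4% of its windows, the deposited upper bounds were 2.28 TPM in replicate 1 and 2.95 TPM in replicate 2.

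Histone variants, most of which are also made outside S phase, lie outside the clusters and usually give polyadenylated mRNAs. For H2A, the clustered genes held 67.9% of the summed TPM of clustered genes and 6 variants in replicate 1 and 80.4% in replicate 2. For H3 they held 69.1% and 74.1%, beside 3 variants. For H1 they held 15.4% in replicate 1 and 23.1% in replicate 2, beside H1f0 and H1fx. Clustered transcripts were thus the larger share for the H2A and H3 types and the smaller share for H1. H1f0, the H1 of resting and differentiated cells, had 125 TPM in replicate 1 and 162 TPM in replicate 2.

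**Figure D4:**
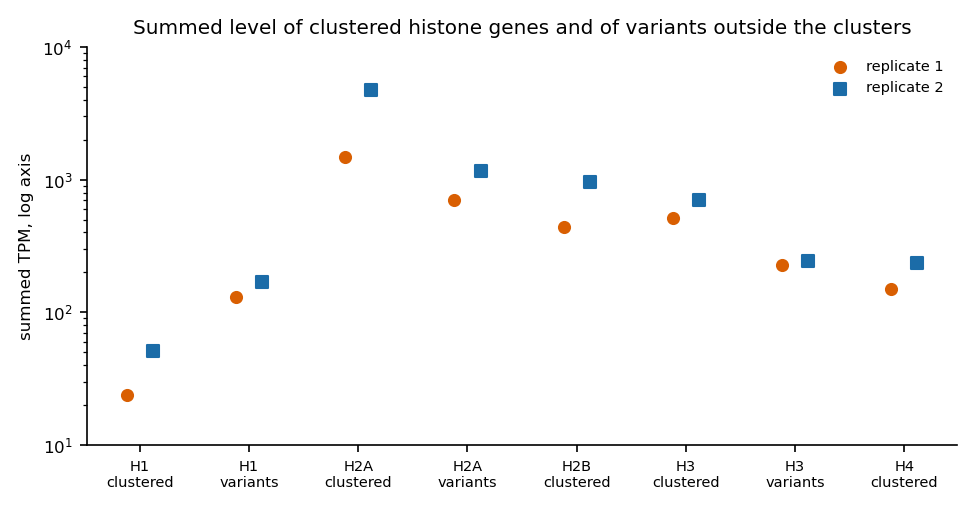
Summed TPM (log axis) of the clustered genes of each histone type and, for H1, H2A and H3, of the variants outside the clusters, with replicate 1 as circles to the left and replicate 2 as squares. Clustered H2A has the highest sum in both libraries, at 1477 and 4769 TPM, and clustered H1 the lowest, at 23.7 and 50.8 TPM.

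Of 11 variants 8 were not called, 1 was higher in replicate 1, against 14.6% of all genes, and 2 in replicate 2, against 11.5%. The median log2 ratio of the variants was -0.44. The highest by mean TPM, H2afj, which encodes an H2A close to the canonical one, had 120 TPM in replicate 1 and 488 TPM in replicate 2, 4.51-fold higher in replicate 2. H2afx, whose protein is phosphorylated at DNA breaks, had 129 and 235 TPM, 2.02-fold higher in replicate 2 (1.96 to 2.08). H2afz, the variant found around promoters, had 298 TPM in replicate 1 against 266 TPM in replicate 2 and was not called. H2afy2, a macroH2A gene, had 1.22 TPM (99 counts) in replicate 1 and 0.45 TPM (35 counts) in replicate 2, an excess of 2.42-fold in replicate 1.

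The annotated 3′ end was compared with levels for the 45 members whose counted transcript has the same length in M21. In 17 the transcript ends 3 to 57 bases after the stem-loop, in 9 it runs on for 169 to 1643 bases, and in 19 it holds no stem-loop. The signal AATAAA, the usual mark for poly(A) addition, stood in the last 60 bases of 6 of the 9 that run on, of 3 of the 19 without a stem-loop and of 0 of the 17. The median level of the 17 was 20.9 TPM in replicate 1 and 23.3 TPM in replicate 2. The median of the 9 that run on was 3.83 and 8.66 TPM, and that of the 19 was 8.17 and 17.2 TPM. Transcripts annotated with an end at the stem-loop were thus not the lowest in this poly(A)-selected RNA, although the 3 sets overlap widely. Hist1h2ap, which reached 1749 TPM in replicate 2, is annotated to end 3 bases after its stem-loop. TPM depends on the annotated length, and the RNA ends themselves were not measured in these tables. The other 19 members have another length in M21 and were left out here.

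**Figure D5:**
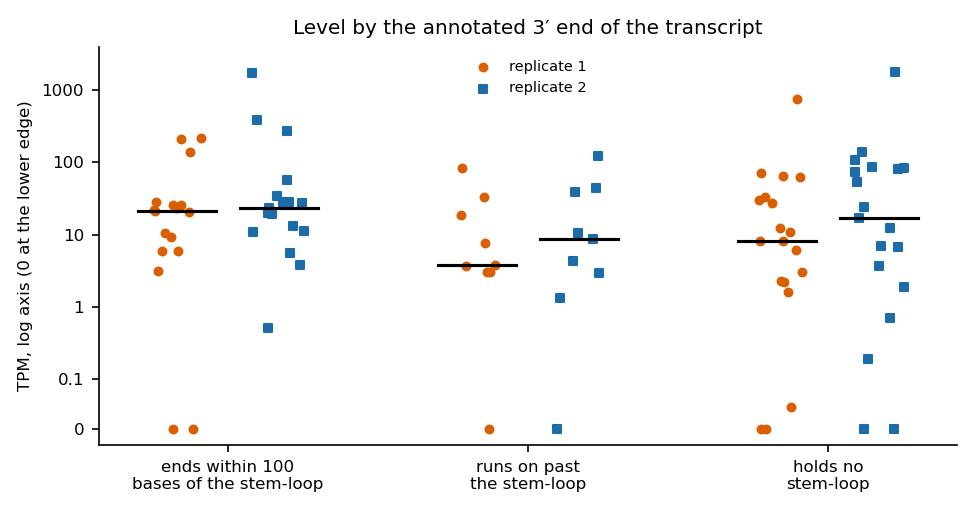
TPM (log axis) of the 45 members whose annotated length is the same in the counted annotation and in M21, by annotated 3′ end, with replicate 1 as circles to the left and replicate 2 as squares, and medians as bars. The 17 transcripts that end within 100 bases of the stem-loop have medians of 20.9 and 23.3 TPM, above those of the other sets, and the 3 sets overlap.

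Genes that process and degrade histone mRNA had log2 ratios on both sides of 0. Of the 21 listed, 19 had a row under their symbol, and 15 of these were not called (median log2 ratio of the 19, 0.11). Higher in replicate 1 were 4 (Coil, Cpsf2, Npat and Zfp473), against 14.6% of all genes tested. Higher in replicate 2 were 0, against 11.5%. At less than 2-fold, Sympk, Cstf2, Cpsf3, Snrpd3 and Srrt had an adjusted p under 0.05 towards replicate 1 in the same exact test, and Snrpb, Upf1, Slbp and Lsm11 towards replicate 2. Slbp, the stem-loop binding protein, had 14.5 TPM (413 counts) in replicate 1 and 25.4 TPM (657 counts) in replicate 2, a 1.86-fold excess in replicate 2 that lay under the limit. Npat, the activator of the clusters at the histone locus body, had 0.41 and 0.11 TPM, and was 3.36-fold higher in replicate 1 (2.15 to 5.44). Cpsf2, a subunit of the cleavage complex, was 3.37-fold higher in replicate 1. Coil, the marker protein of Cajal bodies, was 2.16-fold higher in replicate 1. The most abundant of the list by mean TPM were Snrpb, at 221 TPM in replicate 1 against 241 TPM in replicate 2, Sympk, at 74.2 and 59.5 TPM, and Upf1, at 30.8 and 33.9 TPM, none of them called.

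Genes of S phase were higher in replicate 1 or not called. Of 19 tested, 6 were higher in replicate 1, against 14.6% of all genes tested. These were Mcm2, Mcm4 and Mcm6 of the replicative helicase, Rrm1 of ribonucleotide reductase, Cdc6 and Mki67. None of the 19 was called higher in replicate 2 by this test, against 11.5% of all genes tested. Cdt1 alone had an adjusted p under 0.05 in that direction, at 1.44-fold. The median log2 ratio of the list was 0.53. The most abundant by mean TPM were Cdt1, at 44.8 TPM in replicate 1 against 57.7 TPM in replicate 2, Pcna, at 57.4 and 44.3 TPM, and Ccna2, at 46.7 and 52.7 TPM. The medians of the S phase list and of the H2A genes thus lay on opposite sides of 0.

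Of 18 histone chaperones, which carry histones to DNA, 15 were not called (median log2 ratio of the list 0.17). In replicate 1, 2 were higher, against 14.6% of all genes tested, and Hjurp alone was higher in replicate 2, against 11.5%. Asf1b, a chaperone of H3 and H4, had 42.8 TPM (870 counts) in replicate 1 and 5.44 TPM (285 counts) in replicate 2, 2.62-fold higher in replicate 1 on the count scale. Nasp, which binds H1, H3 and H4, had 2.36 TPM (100 counts) in replicate 1 and 0.34 TPM (26 counts) in replicate 2, an excess of 3.30-fold in replicate 1. Hjurp, which loads the centromeric H3 variant, had 21.4 TPM (2702 counts) in replicate 1 and 33.9 TPM (5161 counts) in replicate 2, an excess of 2.23-fold in replicate 2. The highest of the list by mean TPM were Ssrp1, at 53.8 and 38.8 TPM, Daxx, at 40.6 and 42.5 TPM, and Hjurp. Of 7 lymphocyte and germinal centre genes tested, 0 were higher in replicate 1, 3 were higher in replicate 2 and 4 were not called (median log2 ratio -0.77). Over all genes tested 14.6% were higher in replicate 1 and 11.5% in replicate 2. The part of lymphocytes in the histone levels was not tested.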

How the data were processed

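Polyadenylated RNA of mouse duodenum was measured in 2 libraries of 1 group. The text files deposited beside the tables name mm10 as genome and GENCODE M4, with spike-ins, as annotation; the aligner and quantifier were not given in the sources used here. Deposited expected counts hold fragments that the authors' quantifier divided among genes, without normalization, per the file headers. Deposited TPM were scaled for effective length and total by the authors, per the file headers. Deposited percent values give each isoform's share, per the file headers, and entered no test; deposited lengths and TPM bounds were used as given.

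Symbols came from GENCODE M21 by gene identifier. Counts were rounded and TMM-scaled (edgeR 4.0.16, R 4.3.3) over genes whose counts averaged at least 10. Libraries were compared by an exact two-sided binomial test, Benjamini-Hochberg adjusted over all 15921 genes; the 2-fold limit was applied to the scaled ratio without the added 0.5 CPM. Fold intervals are 95% Clopper-Pearson and, like the p-values and the floors of 3 counts, cover counting error alone, as no molecular identifiers were read. With 1 library on each side there are no residual degrees of freedom, so no test between conditions or with estimated dispersion was made. The test was run on simulated counts that held counting noise alone. That setting lacks the spread between libraries seen here, so it does not show how often the test overcalls. Stem-loops, 76-base windows and proteins were read from M21 transcripts, and promoters from RefSeq. Python 3.11.15, numpy 2.4.6, pandas 2.3.3, scipy 1.17.1 and matplotlib 3.10.9 were used.

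The members and gene lists were chosen with earlier results of these data known. Named were the 3 members of each type with the highest mean TPM, every Hist3 and Hist4 gene, called members, up to 4 members at 0, and of each list the 3 highest and those called. Hist1h2ad and Hist2h3c1, Hist1h2ak, Slbp, H1f0, Hist1h2ao, Hist1h4n and the pair partners fell outside that rule and were chosen after their values were seen, as were ATTTGCAT, the sums without the most abundant members and the sums of near-copies.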

Additional observations from a re-analysis of the deposited data

How the results depend on the processing

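Scaling by spike-in totals or by total counts moved the median log2 ratio of all genes to 0.24, against 0.04 under TMM, and 4 members were then higher in replicate 1 (20.1% and 20.0% of all genes), against 2. Without the 2-fold limit 9 members were higher in replicate 1 and 38 in replicate 2, against 2 and 19; over all genes these shares were 38.4% and 36.5%. With counts summed over members of the same protein, 2 of 27 sums were higher in replicate 1 (14.6% of all genes) and 8 in replicate 2 (11.4% of all genes). The summed TPM of H4 was 127 TPM with full in place of effective transcript length, against 192 TPM, the full length being the larger divisor. The median log2 ratio of the members ranged from -0.68 to -0.34 over the 9 alternatives tried and was negative in each; relative to the median of all genes it stayed negative too. Summed TPM of the other types, the number of members at 1 TPM and the share of the 5 most abundant moved by less than the spread between replicates or 1.5 times. Leaving out either library left single values and no test. No paired analysis was possible because there is 1 group. Fragments shared among near-identical copies, the poly(A) selection and the annotated lengths limit every single-gene value, and with 2 libraries no spread between animals can be separated from technical spread.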
